A study of Arabidopsis thaliana with 10 samples.

Results

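The chloroplast genome of Arabidopsis thaliana carries genes for photosystem, cytochrome b6f, ATP synthase and NADH dehydrogenase-like subunits, the large subunit of Rubisco, ribosomal proteins, RNA polymerase subunits, rRNAs and tRNAs. All genes whose identifier starts with ATCG were taken, which gave 133 of the 34047 genes in each deposited table. They comprised 5 photosystem I, 15 photosystem II, 6 cytochrome b6f, 6 ATP synthase, 12 NADH dehydrogenase-like, 26 ribosomal protein and 4 RNA polymerase genes, the Rubisco gene rbcL, 8 rRNA and 37 tRNA genes and 13 others. Because the chloroplast genome holds an inverted repeat, 18 of the 133 entries were second copies of the same sequence, and 115 distinct sequences remained. Reads from a copy pair cannot be told apart, and each such pair is described once by name although both entries enter the counts.

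Transcripts were measured in whole seedlings, 10 days old and of ecotype Col-0, of 5 genotypes with 2 libraries each. One overexpressor carried 35Spro:IBH1-GFP and the other 35Spro:IBL1-GFP, both homozygous and driven by the broadly active 35S promoter. The ibh1 mutant (SALK 049177) and the ibl1 mutant (SALK 119457) were homozygous lines, the wild type was Col, and no plant was treated. IBH1 and IBL1 are related helix-loop-helix proteins that restrain cell elongation. The overexpressors are called IBH1ox and IBL1ox below, and the groups share ecotype, age and medium. The study's design text calls the libraries of a genotype biological replicates and gives 2, while an extraction text speaks of 3. IBH1 was at 22.2 FPKM (fragments per kilobase of transcript, scaled to the mapped fragments, 1 value per genotype) in Col, 5148 in IBH1ox, 6.91 in the ibh1 mutant, 20.3 in IBL1ox and 17.4 in the ibl1 mutant. IBL1 was at 7.70 FPKM in Col, 201 in IBL1ox, 1.87 in the ibl1 mutant, 1.84 in IBH1ox and 7.27 in the ibh1 mutant, so IBH1ox also had little IBL1 transcript.

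Chloroplast genes are transcribed by a bacterial-type RNA polymerase whose core the rpo genes encode, with sigma factors supplied by the nucleus, and by phage-type polymerases encoded in the nucleus. The phage-type enzymes transcribe the rpoB operon, and the bacterial-type enzyme most photosynthesis genes. In plastids a poly(A) tail marks an RNA for decay, unlike in the cytosol, and most mature plastid mRNAs, rRNAs and tRNAs carry none. The libraries were made from poly(A)-selected RNA, so the values describe the plastid RNA that passed this selection and not the whole plastid pool. In whole seedlings, fewer green cells and less RNA per green cell cannot be told apart.

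A few sequences show what the measurements rest on. The 4.5S rRNA, the small RNA next to the 23S rRNA in plant chloroplast ribosomes, gave the deepest called falls among the rRNAs and is shown whole (RefSeq, TAIR10.1, chloroplast 107599 to 107701, plus strand, with a second copy in the other repeat).
rrn4.5S: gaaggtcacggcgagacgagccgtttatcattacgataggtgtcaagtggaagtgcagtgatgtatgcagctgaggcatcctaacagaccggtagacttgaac

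The psbD and psbC reading frames overlap by 53 bases (chloroplast 33720 to 33772, plus strand). The overlap is shown because reads in this stretch belong to both genes, of which psbC was called in every line and psbD in none. The capitals mark the annotated start codon of psbC.
psbD/psbC overlap: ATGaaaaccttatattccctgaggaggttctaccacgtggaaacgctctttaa

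The psbA gene, called lower in both overexpressors and higher in the ibl1 mutant, has a stretch upstream that resembles a bacterial-type promoter (chloroplast 1530 to 1559, minus strand, starting 115 bases before the start codon). The capitals mark TTGACA and, after 18 bases, a hexamer with 1 mismatch to TATAAT.
psbA promoter-like pair: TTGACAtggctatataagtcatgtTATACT

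Among windows of 250 bases before the start of 80 chloroplast genes other than rRNA and tRNA genes, TTGACA was found on the sense strand in 9 (11.2%) and on the antisense strand in 4 (5%). A TTGACA followed after 15 to 21 bases by a hexamer within 2 mismatches of TATAAT, sense strand only, was found in 4 of 80 windows (5%), those of psbA, petD, ndhF and ndhD. Of these psbA alone was called in any line. Such a match is a run of letters and not a mapped site.

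In Col the level per length spanned several orders of magnitude, and the 4.5S, 23S and 16S rRNAs stood far above all other members. The 4.5S rRNA was at 10024 FPKM, the 23S rRNA at 9532, the 16S rRNA at 9249 and the 5S rRNA at 1363. Among the protein genes the short photosystem II genes psbL (574 FPKM), psbF (488), psbT (387) and psbJ (384) were listed highest, and rbcL was at 227 FPKM. The median over the 15 photosystem II genes was 166 FPKM and over the 5 photosystem I genes 83.6 FPKM. Medians were 36.2 FPKM for ATP synthase, 18.5 for ribosomal protein, 3.92 for RNA polymerase and 2.73 for NADH dehydrogenase-like genes. The fatty acid synthesis gene accD was at 1.73 FPKM, the maturase gene matK at 3.52, the protease gene clpP at 11.3, and the long genes ycf2 and ycf1 (5361 bases) at 0.97 and 0.66. Of the 37 tRNA genes 26 were listed at 0 in Col and 14 in all 5 genotypes, while trnS (88 bases) was listed at 1339 FPKM. Of the other genes petN, petL, petG and psaI, of 90 to 114 bases, were listed at 0 in Col.

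**Figure D1:**
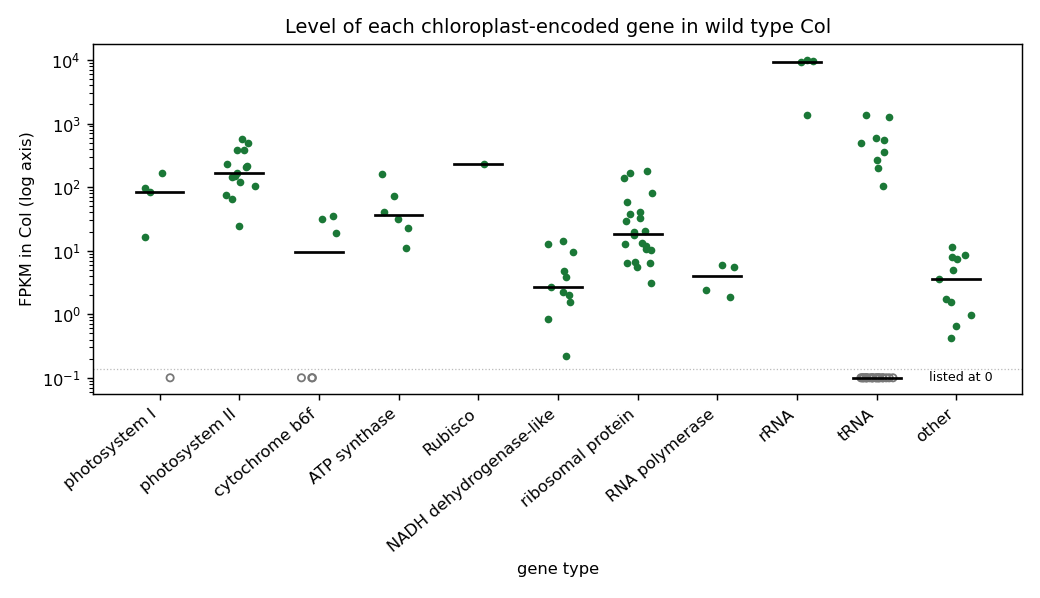
Level of each chloroplast-encoded gene in Col (FPKM, log axis) by gene type, with 1 point per distinct sequence and the median as a bar. Open circles below the dotted line are genes listed at 0. The rRNAs lie between 1363 and 10024 FPKM, and most tRNA genes are listed at 0.

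Across 76 distinct named genes other than rRNA and tRNA genes and above 0 in Col, the level in Col was lower in longer genes (Spearman rho -0.53) and in genes with a longer run of A (rho -0.55), and higher in genes richer in G and C (rho 0.42). These values are across genes of the same libraries, so they are descriptions with no test. Length and A run were both taken over the whole span of a gene from start to end. A longer span has more room for a long run of A, so these values are not separate traits. Longest A runs went from 2 to 14 bases with a median of 6, and the longest was in rpoA. Short genes also carried the largest errors. In IBL1ox the median standard error of the log2 fold change was 1.04 over 27 members of less than 200 bases and 0.45 over 75 longer ones, and the other lines gave 0.96 to 1.1 and 0.42 to 0.44. Values of single tRNA genes and of petN, petL, petG, psaI and psbT are given as listed.

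**Figure D2:**
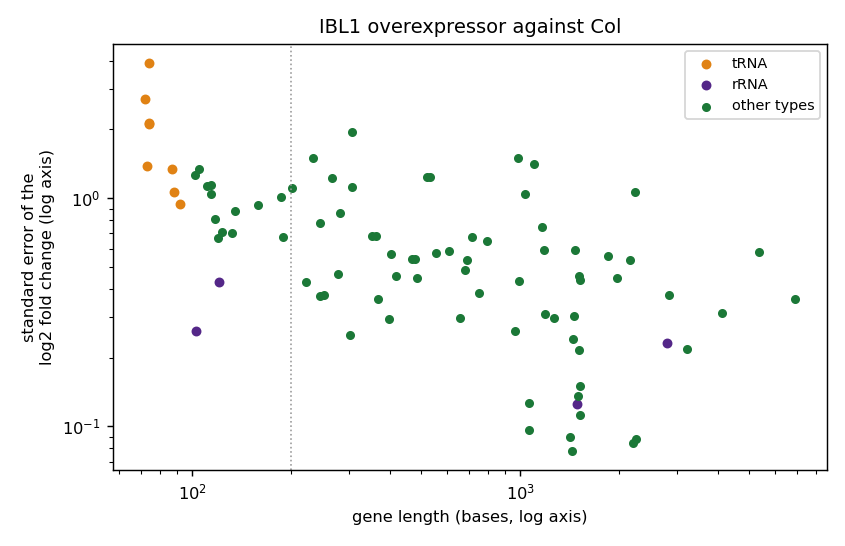
Standard error of the log2 fold change in IBL1ox (log axis) against gene length in bases (log axis), 1 point per distinct sequence. Beside the dotted line at 200 bases, shorter genes have a median of 1.04 and longer ones 0.45.

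Each line was compared with Col. Since IBH1ox had more IBH1 and less IBL1 transcript than Col, the parts of these genes in its changes cannot be told apart. A gene was called where the q-value of Cuffdiff in the authors' deposited table was below 0.05. A fold change compares a line with Col on the log2 scale. Its standard error, given after ±, was obtained by dividing it by the authors' statistic. In IBH1ox 10 of 107 tested members were called, 6 higher and 4 lower, a share of 9.35% beside 8.02% of all 20694 tested genes (3.82% higher and 4.19% lower) in the authors' deposited table. In the ibh1 mutant 5 of 109 were called, all lower (4.59%, beside 3.37% of all genes in either direction and 2.04% lower), and 17 had an unadjusted p below 0.05 in the authors' deposited table. In IBL1ox 14 of 110 were called, 1 higher and 13 lower. The total share of 12.7% was close to the 13.9% of all genes, but the lower calls took 11.8% beside 3.58% of all genes, and the higher calls 0.91% beside 10.3%. In the ibl1 mutant 7 of 109 were called, 3 higher and 4 lower (6.42%, beside 5.45% of all genes in either direction, 1.05% higher and 4.4% lower). Both copies of an rRNA enter these counts. With 1 copy of each gene in 2 copies, the lower calls were 3 in IBH1ox and 3 in the ibh1 mutant. They were 10 in IBL1ox and 3 in the ibl1 mutant. At least 1 call was made for 19 members, or 16 distinct sequences, and none for the other 114.

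Members reaching 1 FPKM in line and Col alike had a median log2 fold change of 0.03 in IBH1ox (94 members), -0.03 in the ibh1 mutant (92), -0.26 in IBL1ox (95) and 0.22 in the ibl1 mutant (94). The same median over all genes was 0.01, 0.01, 0.12 and -0.07, so in both IBL1 lines the median member and the median gene lay on opposite sides of Col. With that 0.12 subtracted in IBL1ox, 16 members instead of 13 were called lower and 0 instead of 1 higher. In IBL1ox 61 of 95 members were below Col, beside 36.3% of all genes. In the ibl1 mutant 56 of 94 were above Col, beside 40.6% of all genes. All 4 comparisons share the Col libraries, so a Col value that is off moves all 4 fold changes of that gene alike.

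**Figure D3:**
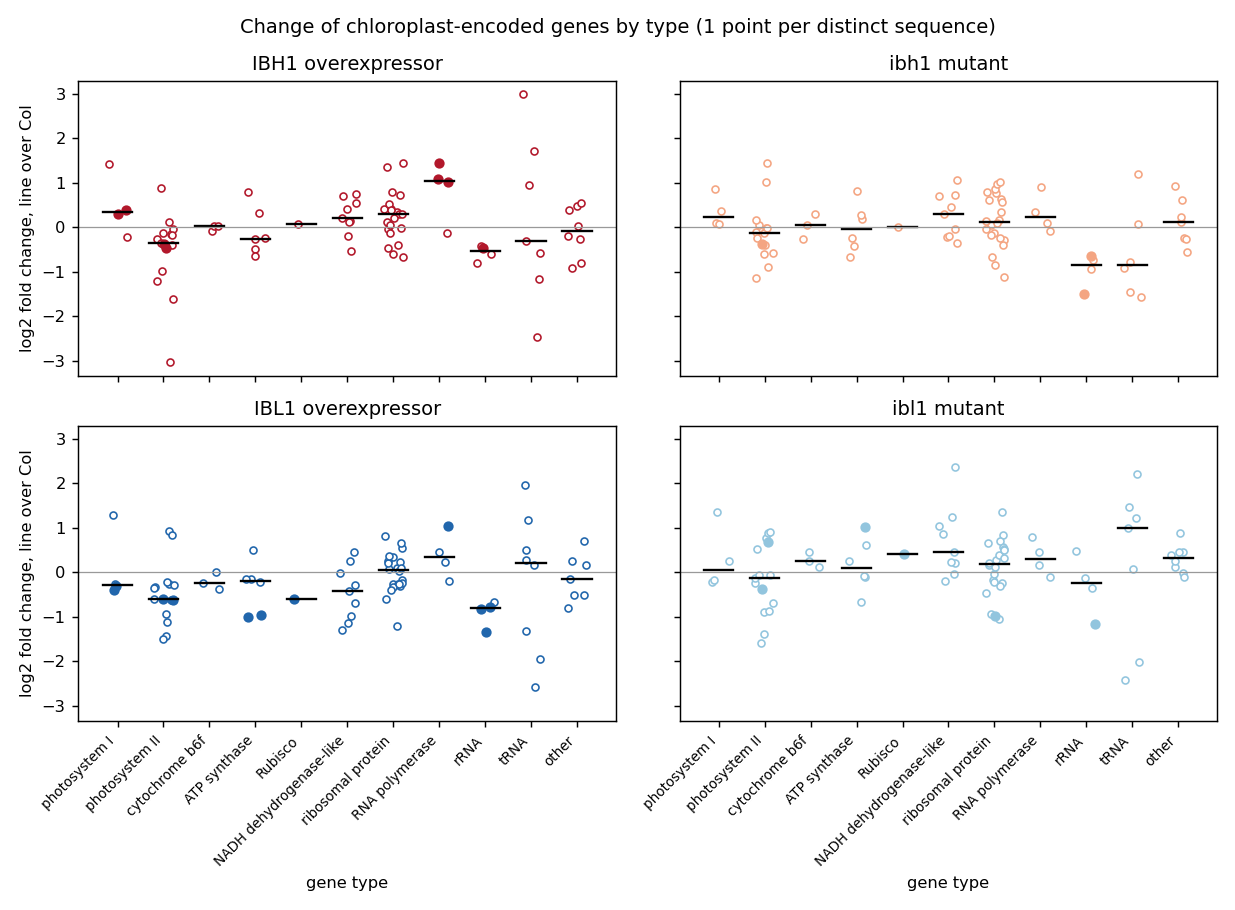
Log2 fold change, line over Col, by gene type in the 4 lines, for chloroplast-encoded genes that reached 1 FPKM in line and Col alike. Each point is 1 distinct sequence, filled where called, and the bar is the median of the points. Photosystem II genes lie mostly below Col in all 4 lines, with the lower medians in IBH1ox and IBL1ox. The rpoB operon genes lie above Col in all 4 lines and highest in IBH1ox.

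Photosystem II genes encode the complex that splits water. psbA, which encodes the D1 reaction centre protein that is replaced often in the light (ATCG00020, chloroplast 383 to 1444, minus strand), was at 166 FPKM in Col, 121 in IBH1ox, 163 in the ibh1 mutant, 109 in IBL1ox and 267 in the ibl1 mutant. It thus lay lowest in the overexpressors and highest in the ibl1 mutant. In the authors' deposited table psbA fell by 0.46 ± 0.10 on the log2 scale in IBH1ox (q 0.000297). It fell by 0.61 ± 0.10 in IBL1ox (q 2.24e-08 in the authors' deposited table). It rose by 0.69 ± 0.09 in the ibl1 mutant (q 1.15e-12 in the authors' deposited table), and in the ibh1 mutant it had -0.02 ± 0.10.

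The differences between lines were also tested, from the 2 fold changes and their standard errors with a two-sided normal test and Benjamini-Hochberg adjustment over all genes. The standard error was taken as if the comparisons did not share Col. Col cancels in such a difference, but its error was counted for both lines, which widens the standard error. Members that did not pass may therefore have been missed. Between IBH1ox and the ibh1 mutant 0 of 94 members passed this normal test, beside 2.91% of 19898 genes, and 6 had an unadjusted p below 0.05. Between IBL1ox and the ibl1 mutant psbA differed by -1.29 ± 0.13 (adjusted p 3.89e-20, over 20088 genes, of which 5.16% passed). Between IBH1ox and the ibl1 mutant it differed by -1.15 ± 0.13 (adjusted p 1.05e-14, over 19806 genes, of which 3.27% passed), and between the ibh1 and ibl1 mutants by -0.71 ± 0.14 (adjusted p 0.000153, over 19969 genes, of which 0.466% passed). The ibh1 mutant was above IBL1ox by 0.58 ± 0.14 (adjusted p 0.00336, over 20245 genes, of which 2.54% passed).

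psbC, which encodes the inner antenna protein CP43, was the one gene called lower in every line. The identifiers ATCG00270 and ATCG00280 share 1 position in the files. They were taken as psbD and psbC from general knowledge of the locus names, with RefSeq positions, as were matK, atpE, atpB and ndhF among the genes named here. psbC (ATCG00280, chloroplast 33720 to 35141, plus strand) was at 147 FPKM in Col, 113 in IBH1ox, 113 in the ibh1 mutant, 96.2 in IBL1ox and 113 in the ibl1 mutant. The log2 fold changes were -0.38 ± 0.09, -0.38 ± 0.10, -0.61 ± 0.09 and -0.38 ± 0.09, with q of 0.00184, 0.0138, 8.37e-10 and 0.00225 in the authors' deposited table. psbD, which encodes the D2 reaction centre protein and lies upstream on the same transcripts, was at 74.4 FPKM in Col and between 62.6 and 69.3 in the lines, and was called in none. Since the reading frames overlap, the split of reads between psbD and psbC rests on the authors' counting.

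The other photosystem II genes were not called. psbB, which encodes the antenna protein CP47, was at 64.6 FPKM in Col, 50.6 in IBH1ox, 63.5 in the ibh1 mutant, 53.3 in IBL1ox and 62.3 in the ibl1 mutant. Its log2 fold change was -0.35 ± 0.12 in IBH1ox, where the q of the authors' deposited table was 0.0517. Counting all 15 genes, 13 were below Col in IBH1ox with a median log2 of -0.35, and 13 in IBL1ox with a median of -0.60. In the ibh1 and ibl1 mutants 11 and 10 of 15 were below Col, with medians of -0.12 and -0.13. Of all genes 49.2% were below Col in IBH1ox, 47.9% in the ibh1 mutant, 36.3% in IBL1ox and 59.4% in the ibl1 mutant. The median standard error over the 15 genes was 0.63 to 0.67. Across 70 or 71 distinct named genes other than rRNA and tRNA genes, a higher level in Col went with a lower fold change. Spearman rho was -0.41, -0.38, -0.33 and -0.38 in these lines, with no test, and Col enters both values. The small subunit genes ranged from -3.04 ± 1.802 (psbI, IBH1ox) to 1.44 ± 0.95 (psbK, ibh1 mutant), and none was called.

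Photosystem I receives electrons from photosystem II and passes them on to ferredoxin. Its large core subunits are encoded by psaA and psaB, which are transcribed together with rps14. psaB (ATCG00340, chloroplast 37375 to 39579, minus strand) was at 95.5 FPKM in Col, 126 in IBH1ox, 102 in the ibh1 mutant, 77.3 in IBL1ox and 82.6 in the ibl1 mutant. psaA (ATCG00350, chloroplast 39605 to 41857, minus strand) was at 83.6, 102, 87.3, 63.5 and 74.0 FPKM in the same order. Both genes thus ranked the genotypes alike, with IBH1ox above Col and IBL1ox at the bottom. In IBH1ox psaB rose by 0.40 ± 0.09 and psaA by 0.29 ± 0.09 (q 0.000169 and 0.019 in the authors' deposited table). In IBL1ox psaB fell by 0.30 ± 0.08 and psaA by 0.40 ± 0.09 (q 0.00419 and 0.00017 in the authors' deposited table).

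The overexpressors differed in psaB by 0.70 ± 0.12 (adjusted p 7.15e-07) and in psaA by 0.69 ± 0.13 (adjusted p 4.09e-06), over 20005 genes, of which 5.48% passed. IBH1ox was also above the ibl1 mutant in psaB by 0.61 ± 0.12 (adjusted p 9.5e-05) and in psaA by 0.47 ± 0.13 (adjusted p 0.011, or 0.0627 after subtracting the median shift between these lines). The ibh1 mutant was above IBL1ox in psaA by 0.46 ± 0.13 (adjusted p 0.0275). rps14 (ATCG00330, 303 bases), for a protein of the small ribosomal subunit, was at 138 FPKM in Col, 175 in IBH1ox, 142 in the ibh1 mutant, 122 in IBL1ox and 70.0 in the ibl1 mutant. It fell in the ibl1 mutant (log2 -0.98 ± 0.31, q 0.0305 in the authors' deposited table), a call lost after subtracting the median shift of all genes (adjusted p 0.065), and there it was below IBH1ox by 1.32 ± 0.39 (adjusted p 0.026). Of the small subunit genes, psaC had 1.42 ± 0.79 in IBH1ox and psaJ -0.22 ± 0.92, neither called. psaI (114 bases) was called higher in IBH1ox (q 0.0394 in the authors' deposited table), at 509 FPKM beside a Col value listed at 0. The ibh1 mutant was also listed at 0 for psaI, IBL1ox at 80.3 FPKM and the ibl1 mutant at 107 FPKM.

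**Figure D4:**
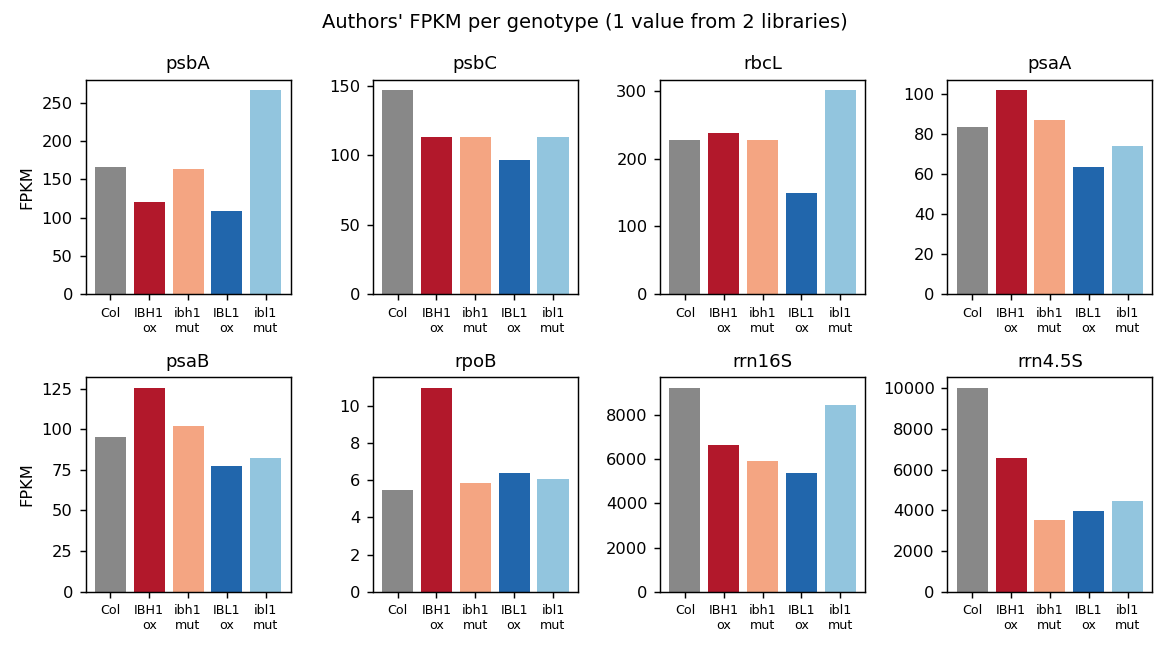
Authors' FPKM in each genotype for 8 chloroplast-encoded genes, 1 value from 2 libraries per bar, with no error bar because no value per library was used. The labels ox and mut stand for overexpressor and mutant. psbA is highest in the ibl1 mutant at 267 FPKM, psbC is below Col in every line, and rpoB stands at 11.0 FPKM in IBH1ox beside 5.46 in Col.

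rbcL, which encodes the carbon-fixing large subunit of Rubisco (ATCG00490, chloroplast 54958 to 56397, plus strand), was at 227 FPKM in Col, 238 in IBH1ox, 227 in the ibh1 mutant, 149 in IBL1ox and 301 in the ibl1 mutant. The IBH1 lines were close to Col and the IBL1 lines lay on opposite sides of it. rbcL fell by 0.60 ± 0.08 in IBL1ox (q 1.12e-12 in the authors' deposited table) and rose by 0.41 ± 0.08 in the ibl1 mutant (q 7.46e-06 in the authors' deposited table). The IBL1 lines differed by -1.01 ± 0.11 (adjusted p 1.05e-17). IBL1ox was also below IBH1ox, which exceeded it by 0.67 ± 0.11 (adjusted p 2.42e-07), and below the ibh1 mutant, which exceeded it by 0.61 ± 0.12 (adjusted p 7.4e-05).

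The ATP synthase makes ATP from the proton gradient across the thylakoid membrane. atpE, for the epsilon subunit (ATCG00470, chloroplast 52265 to 52663, minus strand), was at 73.1 FPKM in Col, 46.9 in IBH1ox, 45.7 in the ibh1 mutant, 37.6 in IBL1ox and 46.0 in the ibl1 mutant. All lines were below Col, and the fall of 0.96 ± 0.29 in IBL1ox was called (q 0.0123 in the authors' deposited table). atpB, for the beta subunit, shares its last bases with the start of atpE and was at 40.9 FPKM in Col and 34.4 to 38.9 in the lines, called in none. atpH, for the membrane ring subunit, fell from 162 FPKM in Col to 80.6 in IBL1ox plants (log2 -1.004 ± 0.37), just inside the threshold with q 0.0496 in the authors' deposited table. atpF, for a stalk subunit (ATCG00130), was at 23.0 FPKM in Col and 40.05, 40.7, 32.7 and 46.2 FPKM in IBH1ox, the ibh1 mutant, IBL1ox and the ibl1 mutant. It rose in the ibl1 mutant (log2 1.01 ± 0.29, q 0.0124 in the authors' deposited table). atpA, for the alpha subunit, was at 31.4 FPKM in Col and 28.4 to 39.5 FPKM in the lines, called in none.

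The cytochrome b6f complex links the photosystems, and none of its genes was called in any line. Of its 6 genes 4 to 6 were tested in a line, with 0 to 2 at an unadjusted p below 0.05 in the authors' deposited table. petA, for cytochrome f, was at 19.0 FPKM in Col and 14.6 to 20.8 in the lines. petB, for cytochrome b6, was at 35.5 FPKM in Col and 30.2 to 49.1 in the lines, and petD, for subunit IV, at 31.1 and 31.6 to 37.3 FPKM. The NADH dehydrogenase-like complex, which carries electrons around photosystem I, had 10 genes that reached 1 FPKM in line and Col alike. Of these 8 were above Col in IBH1ox (median log2 0.31), 6 in the ibh1 mutant (0.38), 2 in IBL1ox (-0.35) and 8 in the ibl1 mutant (0.45). Of all genes 50.8%, 52.1%, 63.7% and 40.6% were above Col in these lines. Most of the 10 lie in the ndhC and ndhH operons, whose genes share transcripts, so they do not count as separate genes. No NADH dehydrogenase-like gene was called, and 0 to 4 had an unadjusted p below 0.05 in the authors' deposited table. Levels in Col were 0.22 to 13.9 FPKM, and the median standard error was 0.52 to 0.56. ndhK had -1.29 ± 0.48 in IBL1ox, where the authors' deposited table lists q 0.0537, and ndhG had 2.36 ± 0.97 in the ibl1 mutant. ndhB was at 2.73 FPKM in Col and ndhF at 0.22 FPKM, and neither was called. In IBH1ox and the ibh1 mutant ndhF was not tested.

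The core RNA polymerase genes of the rpoB operon were called higher in IBH1ox, and rpoC1 had the largest called rise that has a fold change. rpoB, for the beta subunit (ATCG00190, chloroplast 23111 to 26329, minus strand), was at 5.46 FPKM in Col, 11.0 in IBH1ox, 5.85 in the ibh1 mutant, 6.41 in IBL1ox and 6.09 in the ibl1 mutant. rpoC1 (ATCG00180, chloroplast 20251 to 23084) was at 2.39, 6.53, 4.44, 4.89 and 4.17 FPKM in that order. rpoC2 (ATCG00170, chloroplast 15938 to 20068) was at 1.88, 3.97, 2.40, 2.59 and 2.59 FPKM. For all 3 genes of the operon every line was above Col and IBH1ox was highest.

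In IBH1ox the rises were 1.01 ± 0.21 for rpoB, 1.45 ± 0.37 for rpoC1 and 1.08 ± 0.30 for rpoC2 (q 4.78e-05, 0.00245 and 0.00759 in the authors' deposited table). rpoC1 also rose in IBL1ox by 1.04 ± 0.38 (q 0.0438 in the authors' deposited table), a call lost after subtracting the line's overall shift. rpoA, for the alpha subunit, lies at the end of the ribosomal protein cluster and was at 6.02 FPKM in Col and 5.28 to 5.66 in the lines, called in none. For rpoB IBH1ox exceeded the ibh1 mutant by 0.91 ± 0.31 (adjusted p 0.0863), IBL1ox by 0.78 ± 0.30 (adjusted p 0.123) and the ibl1 mutant by 0.85 ± 0.31 (adjusted p 0.121), none past the threshold. rpoC1 and rpoC2 gave adjusted p of 0.599 or more.

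**Figure D5:**
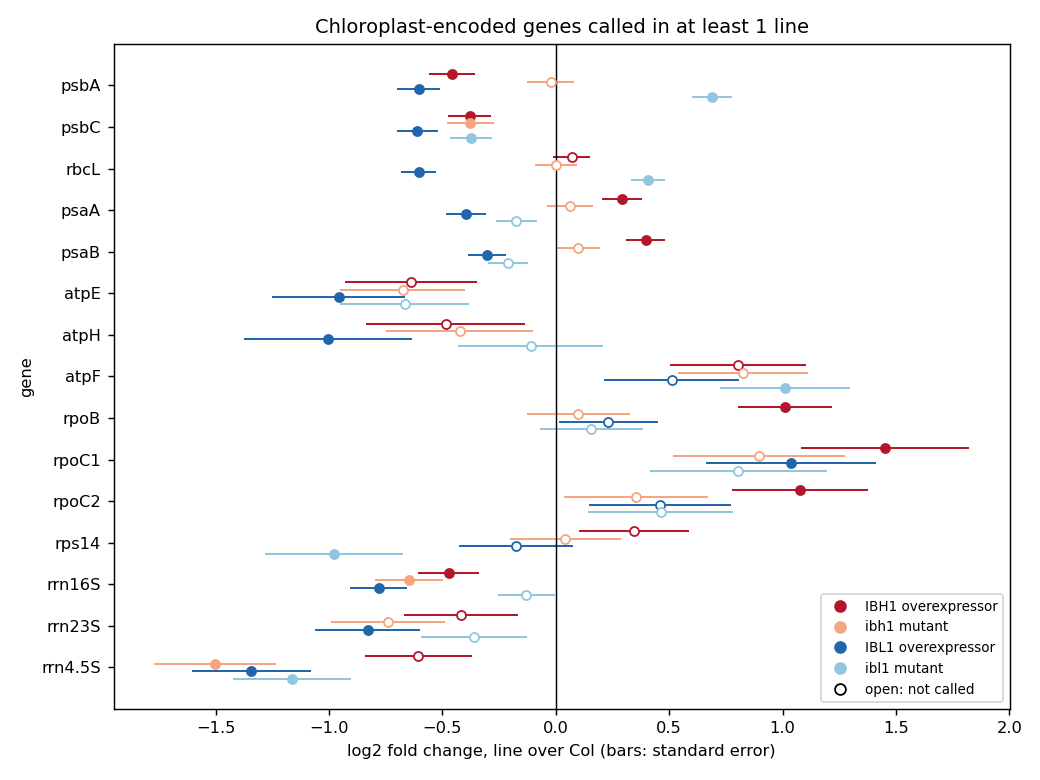
Log2 fold change, line over Col, with its standard error for the 15 called chloroplast-encoded genes that have a fold change, in the 4 lines. Filled points were called. psbA and rbcL lie on opposite sides of Col in IBL1ox and the ibl1 mutant, and the rRNAs lie below Col in every line shown.

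Ribosomal protein genes made up the largest protein group, and rps14 was the one called among 26. Their medians were 0.30 in IBH1ox, 0.11 in the ibh1 mutant, 0.04 in IBL1ox and 0.19 in the ibl1 mutant. Above Col were 18 of 25 members in IBH1ox (50.8% of all genes), 15 of 26 in the ibh1 mutant (52.1%), 14 of 26 in IBL1ox (63.7%) and 16 of 26 in the ibl1 mutant (40.6%). rpl2, rpl16, rps4 and the 3' part of rps12 were at 29.1, 41.2, 6.33 and 32.3 FPKM in Col, and their log2 fold changes lay between -1.04 and 0.41 over the 4 lines with no call. Across the 11 genes of the cluster from rpl23 to rpoA, 7 were above Col in IBH1ox, 5 in the ibh1 mutant, 8 in IBL1ox and 6 in the ibl1 mutant.

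The rRNAs of the plastid ribosome were below Col in nearly every comparison. The 16S rRNA (ATCG00920 and its copy ATCG01210, chloroplast 101012 to 102502 and 136147 to 137637) was at 9249 FPKM in Col, 6665 in IBH1ox, 5908 in the ibh1 mutant, 5383 in IBL1ox and 8451 in the ibl1 mutant. It fell by 0.47 ± 0.14, 0.65 ± 0.15 and 0.78 ± 0.13 in the first 3 of these lines (q 0.00987, 0.00176 and 3.09e-08 in the authors' deposited table) and had -0.13 ± 0.13 in the ibl1 mutant. IBL1ox minus the ibl1 mutant was -0.65 ± 0.18 (adjusted p 0.00896).

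The 4.5S rRNA, printed above, was at 10024 FPKM in Col, 6583 in IBH1ox, 3539 in the ibh1 mutant, 3954 in IBL1ox and 4476 in the ibl1 mutant. It fell by 1.502 ± 0.27 in the ibh1 mutant, 1.34 ± 0.26 in IBL1ox and 1.16 ± 0.26 in the ibl1 mutant (q 5.87e-06, 9.95e-06 and 0.000503 in the authors' deposited table). In IBH1ox it had -0.61 ± 0.24 (q 0.0963 in the authors' deposited table). The 23S rRNA was at 9532 FPKM in Col, 7127 in IBH1ox, 5703 in the ibh1 mutant, 5362 in IBL1ox and 7424 in the ibl1 mutant. Its fall of 0.83 ± 0.23 in IBL1ox was called (q 0.00473 in the authors' deposited table). The 5S rRNA was at 1363, 784, 714, 858 and 1912 FPKM in the same order and was not called. All these are levels in poly(A)-selected RNA.

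tRNA genes gave no call, with 1 or 2 per line at an unadjusted p below 0.05 in the authors' deposited table. Between 15 and 18 of the 37 were tested in a line, and fold changes of those at 1 FPKM or more ran from -2.58 to 2.98 on the log2 scale with median errors of 1.94 to 2.12. trnE was listed at 1252 FPKM in Col and at 0 in IBH1ox, and trnP at 262 FPKM in Col and 2074 in IBH1ox, neither called. The remaining genes were not called either. accD had 0.93 ± 0.53 in the ibh1 mutant, clpP 0.55 ± 0.41 in IBH1ox and matK, which lies in the intron of trnK and may share its reads, 0.88 ± 0.37 in the ibl1 mutant. The 5361-base ycf1 was at 0.66 FPKM in Col and 0.35 to 1.14 in the lines, and ycf2 at 0.97 and 0.93 to 1.14 FPKM. This ycf1 was tested in the ibl1 mutant only.

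Summed over all members, the chloroplast genes took 2.96% of the summed FPKM of Col, 2.22% in IBH1ox, 1.93% in the ibh1 mutant, 1.94% in IBL1ox and 2.70% in the ibl1 mutant. The rRNAs made up 72.1% to 84.1% of these sums. The summed FPKM of the 88 members other than rRNA and tRNA was 5465 in Col, 5595, 5963, 4363 and 5923 in the same order of lines, lowest in IBL1ox. Short genes that were not called weigh heavily in these sums, which carry no error. In the ibh1 mutant petN, petL and petG were listed at 358, 183 and 159 FPKM beside 0 in Col. In IBL1ox psbL was listed at 212 FPKM beside 574 in Col. One nuclear gene of 102 bases, AT2G01021, held 51.3% to 55.9% of all summed FPKM, and without it the chloroplast share was 6.16% in Col and 3.97% to 5.55% in the lines.

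Nuclear genes that act on the plastid genome were set beside the members. Of 21 genes of plastid transcription (sigma factors, phage-type polymerases and proteins bound to the bacterial-type polymerase), 1 rose in IBH1ox, 0 were called in the ibh1 mutant (7 at an unadjusted p below 0.05 in the authors' deposited table), 2 of 20 tested fell in IBL1ox and 1 fell in the ibl1 mutant. Of all tested genes 3.82% were called higher and 4.19% lower in IBH1ox, and 1.34% higher and 2.04% lower in the ibh1 mutant. In IBL1ox and the ibl1 mutant 3.58% and 4.4% were called lower. The single calls in IBH1ox and the ibl1 mutant are thus near the background. RPOTp, a phage-type plastid polymerase (AT2G24120), rose in IBH1ox from 14.5 to 19.5 FPKM (log2 0.43 ± 0.13, q 0.0202 in the authors' deposited table). PTAC3, a protein bound to the polymerase, fell by 0.48 ± 0.11 in IBL1ox and 0.34 ± 0.11 in the ibl1 mutant, and the sigma factor gene SIG4 by 0.63 ± 0.21 in IBL1ox. Of 6 genes of plastid RNA processing and decay, the exoribonuclease gene RNR1 (0.54 ± 0.15) and the RNase J gene AT5G63420 (0.53 ± 0.13) rose in IBH1ox. CSP41A, an RNA-binding protein, fell there by 0.26 ± 0.08 and in IBL1ox by 0.34 ± 0.07, and 0 genes of this list were called in the mutants, nor had any an unadjusted p below 0.05 in the authors' deposited table.

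Green-tissue and root genes were also called in the same comparisons. Of 20 nuclear antenna, Rubisco and photosystem genes 15 fell in IBH1ox, 10 in the ibh1 mutant, where RCA rose by 0.08 ± 0.02, 16 in IBL1ox and 15 in the ibl1 mutant. Of all tested genes 4.19%, 2.04%, 3.58% and 4.4% were called lower in these lines. Their summed level was 114261 FPKM in Col and 82513, 90362, 68500 and 82016 FPKM in the lines in that order. In the ibl1 mutant psbA and rbcL rose while 15 of the nuclear genes fell, all of them antenna or photosystem genes. The Rubisco small subunit genes RBCS1A, RBCS1B, RBCS2B and RBCS3B were called in no line. Their log2 fold changes in the ibl1 mutant were -0.13, 0.16, 0.10 and 0.05. Of 11 root markers, none of them at 0 in Col, 1 rose and 1 fell in IBH1ox, 3 rose in the ibh1 mutant, 4 rose in IBL1ox and 0 were called in the ibl1 mutant, where none had an unadjusted p below 0.05 in the authors' deposited table. Of all tested genes 3.82%, 1.34%, 10.3% and 1.05% were called higher in IBH1ox, the ibh1 mutant, IBL1ox and the ibl1 mutant. The summed level of the root markers was 170 FPKM in Col and 164, 230, 221 and 173 FPKM in the lines. The part of a changed share of root or green tissue in the chloroplast values was not tested. Mitochondrion-encoded genes, the other organelle RNA in these libraries, had 0, 2, 2 and 5 lower calls and 0 higher calls among 73 to 84 tested, with medians of -0.23, -0.20, -0.19 and -0.41. Of all tested genes 4.19%, 2.04%, 3.58% and 4.4% were called lower, so the mitochondrial counts in the mutants and IBL1ox are near the background.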

How the data were processed

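Whole-seedling RNA went through an Illumina mRNA library kit, per the labels' protocols, and GEO lists the molecule as poly(A) RNA. CASAVA 1.8.2, TopHat 1.4.1 and Cuffdiff with TAIR10 are named per the submitters' processing notes. The Cuffdiff version, its scaling and whether strand was used were not stated, so overlapping and antisense genes may share reads. Each of the 4 deposited tables sets a line beside Col with 1 FPKM value per group, p-values and q-values, and a log2 ratio of Col over line, turned round here. The deposited bHLH159 tables were taken as IBL1 from general knowledge. Depth per library is unknown and no value per library was used, so no spread between libraries is given.

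A standard error is the log2 fold change over the deposited statistic. The deposited q-value equalled Benjamini-Hochberg adjustment over the genes tested to within 2.39e-06. Of 133 members, 116 had the start and end of a RefSeq TAIR10.1 gene, 4 shared 1 end, 1 was matched by sequence, 10 at 5 shared loci were named from general knowledge, and 2 kept their identifier. RPOTp, RPOTmp and RNase J were also named from general knowledge. The rule for named genes took all called members, a fixed set of main subunit genes and the 5 highest in Col; psbF, psbI, psbJ, psbK, psbL, psbT, psaC, psaJ, petG, petL, petN, ndhG, ndhK, trnE, trnP, trnS and the 5S rRNA were added after their values were seen. Members and lists were chosen with earlier results of these data known. The tests between lines, their centring and the settings without AT2G01021 or genes under 200 bases were added after seeing the data. Centring subtracted the median log2 fold change over genes at 1 FPKM or more in line and Col. The code was tested on simulated data. Python 3.11.15, numpy 2.4.6, pandas 2.3.3, scipy 1.17.1 and matplotlib 3.10.9 were used.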

Additional observations from a re-analysis of the deposited data

Results flagged for a closer look

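Some genes were called higher in 1 line and lower in another, and the difference between those lines was tested and passed the adjustment over all genes. psbA differed by -1.29 on the log2 scale between the IBL1 overexpressor and the ibl1 mutant, and by -1.15 between the IBH1 overexpressor and the ibl1 mutant. rbcL differed by -1.01 between the IBL1 overexpressor and the ibl1 mutant. Between the IBH1 and IBL1 overexpressors psaB differed by 0.70 and psaA by 0.69. The tests took the comparisons as independent although they share the Col libraries, which widens the standard error of a difference.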

How the results depend on the processing

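No paired analysis was possible because the files hold 1 value per group, and for the same reason no library could be left out. Of the counts of calls, most moved by no more than 1.5 times. After centring on the median of all genes or with q below 0.01, the 1 higher call in the IBL1 overexpressor (rpoC1) became 0. The 5 lower calls in the ibh1 mutant became 3 with 1 copy of each gene in 2 copies and 3 with genes of at least 200 bases, and with the latter the 4 lower calls in the ibl1 mutant became 2, since the 16S and 4.5S rRNAs are each called in 2 copies and the 4.5S rRNA has 103 bases. Centring also ended the call of rps14 in the ibl1 mutant (adjusted p 0.065) and added psbB in the IBH1 overexpressor (0.0455) and psbB (0.00677), psbD (0.0359) and ndhK (0.0351) in the IBL1 overexpressor. Centring changed the members that differ between the ibh1 and ibl1 mutants from 1 to 2 (rbcL added, adjusted p 0.0161), and between the IBH1 overexpressor and the ibl1 mutant it ended the difference of psaA (0.0627) and added rbcL (0.00925). It also added psaB between the ibh1 mutant and the IBL1 overexpressor (0.00734), and psbC (0.0361) and psaA (0.0421) between the IBL1 lines, where 6 instead of 4 members differed. The median log2 fold change over members depends on whether genes listed at 0 count: with a pseudocount of 1 over all members it was -0.01 instead of -0.26 in the IBL1 overexpressor and 0.10 instead of 0.22 in the ibl1 mutant. In the ibh1 mutant it was 0.06 instead of -0.03 without rRNA and tRNA. The chloroplast share of summed FPKM depends on what is summed. In Col, the IBH1 overexpressor, the ibh1 mutant, the IBL1 overexpressor and the ibl1 mutant it was 0.236%, 0.236%, 0.29%, 0.202% and 0.295% for members other than rRNA and tRNA over all such genes, 0.52%, 0.566%, 0.62%, 0.432% and 0.641% when AT2G01021 was also left out, and 6.16%, 5.04%, 3.97%, 4.02% and 5.55% with all members but without AT2G01021.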
